A study of Mus musculus with 29 samples.

Results

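RNA was sequenced from hepatic Ly6C hi and Ly6C low macrophages of mice that lack RNase T2 and of wild-type mice, and the genes described here are those whose response to the loss of RNase T2 differed between these subsets. The 12 hepatic libraries of the series' 29 that hold Ly6C hi or Ly6C low macrophages were used, 3 for each genotype and subset. Of 12113 autosomal genes that reached 1 RPM in at least 3 of these libraries, from 21921 autosomal genes in the deposited table, 1268 met the criteria for such a difference. Wild-type mice were C57BL/6, the mutants were Rnaset2a-/-Rnaset2b-/- mice, called Rnaset2-/- here, and the mice, whose age the labels do not give, had received no treatment. Both subsets were CD11b(+), Ly6G(-), SiglecF(-) and NK1.1(-), and the Ly6C low gate also required Fcgr4, so a gene that marks the gate is no finding between subsets. The study's methods text describes the hepatic gates of Rnaset2-/- mice in the same words for both subsets, so the subsets are named here as the labels give them. Whether a library came from 1 mouse or from pooled mice was not given in the sources used here, and p-values then measure the spread between these libraries, which may be technical.

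RNase T2 is an endolysosomal ribonuclease that degrades RNA taken up or delivered to these compartments, where the RNA-sensing Toll-like receptors TLR7 and TLR13 reside. Ly6C hi cells are classical monocytes and their early descendants, which enter tissue through the chemokine receptor CCR2. Ly6C low cells include patrolling monocytes and monocyte-derived macrophages, and in the liver such cells can take on genes of Kupffer cells (KCs), the resident macrophages that line the sinusoids. The nuclear receptor LXRα, encoded by Nr1h3, pairs with the retinoid X receptor encoded by Rxra and drives genes of cholesterol export and of KC identity.

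The libraries were made from 1 amplicon per gene with the Ion AmpliSeq Transcriptome kit and held 11175843 to 13060965 reads, so that 3 reads, taken as the limit of detection, were 0.23 to 0.268 RPM. RPM are reads scaled to an equal total in each library, and levels are compared for 1 gene between libraries and not between genes. Csf1r, the receptor for macrophage colony-stimulating factor, was at 665 RPM or more and Itgam (CD11b) at 630.0 RPM or more in all 12 libraries. Ccr2, a chemokine receptor of Ly6C hi monocytes, was at 336 to 558 RPM in the 6 Ly6C hi libraries and at 6.28 to 219 RPM in the 6 Ly6C low libraries. Fcgr4, which the Ly6C low gate used, was at 74.6 to 88.3 RPM in wild-type Ly6C hi and 398 to 501 RPM in wild-type Ly6C low macrophages, but at 445 to 1021 RPM in Rnaset2-/- Ly6C hi and 2577 to 4451 RPM in Rnaset2-/- Ly6C low macrophages. Transcripts of RNase T2 and of Ly6C itself are not analysed here, so the genotype and the gate could not be checked on their own transcripts. Xist was at 321 to 539 RPM in the wild-type libraries and at or below 0.154 RPM in the Rnaset2-/- libraries of both subsets, so genotype and sex cannot be told apart.

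One library stood apart. Rnaset2-/- Ly6C hi replicate 1 correlated with the other libraries of its group at r = 0.9395 and 0.9475 over genes, while these other libraries correlated with each other at 0.9864. With Rnaset2-/- Ly6C low replicate 1, the library of the same number, it correlated at 0.9465. With Ly6C low replicates 2 and 3 it correlated at 0.9037 and 0.9013, below its values within its own group. For 894 of the 1268 genes described here (70.5%), its level lay on the side of the Rnaset2-/- Ly6C low mean when compared with replicates 2 and 3. These genes were called with the same libraries, and the share over all genes tested was not computed. The 70.5% therefore describes the called genes and is no measure of the library. Results are given with this library, and without it where the call or the size depends on it.

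To ask which genes responded differently in the subsets, the change from wild-type to Rnaset2-/- in Ly6C hi macrophages was subtracted from that in Ly6C low macrophages on the log2(RPM + 1) scale, after scaling by relative log expression. This interaction is positive where Rnaset2-/- Ly6C low macrophages gained more, or lost less, than Ly6C hi macrophages. At more than 1.5-fold and an adjusted p below 0.05 in limma, the interaction was positive for 629 genes (5.19% of the genes tested) and negative for 639 (5.28%). Positive interactions had a median of 1.42 and reached 5.07, and negative ones had a median of -2.06 and reached -7.15. Without the library that stood apart, 1084 genes were positive and 1259 negative, and 1232 of the 1268 genes were called again in the same direction. Without wild-type Ly6C low replicate 3, the counts were 318 and 354. With RPM as deposited and no scaling, the median interaction of all genes moved from -0.038 to -0.26, and 331 genes were positive and 845 negative, a share of 28.1% positive against 49.6%. Counts of gene lists under these settings are to be set against these counts over all genes. Levels in RPM, and overlaps between libraries, are given as deposited, before scaling by relative log expression.

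**Figure D1:**
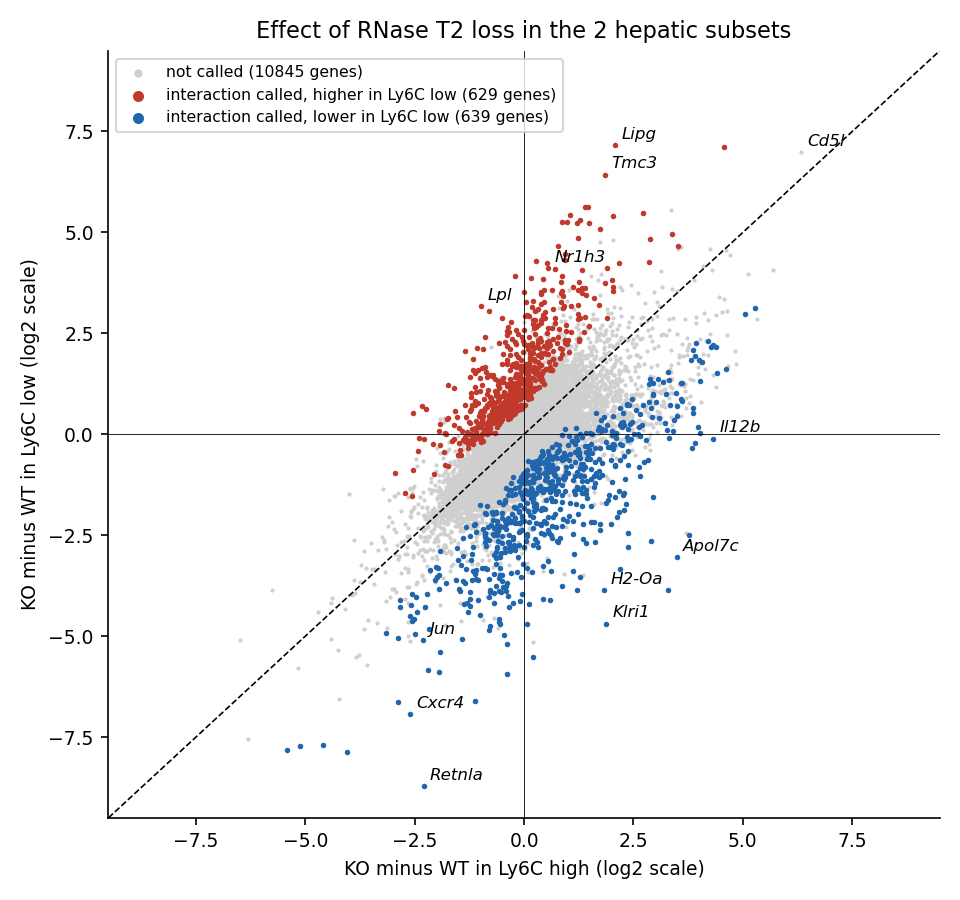
Change from wild-type (WT) to Rnaset2-/- (KO) in hepatic Ly6C hi (horizontal) and Ly6C low macrophages (vertical), each point 1 of 12113 genes, on the log2(scaled RPM + 1) scale, with the dashed line at equal change. The 629 genes with a positive interaction lie above the line and the 639 with a negative one below it.

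Most genes responded in 1 subset. Among the 629 positive genes, 363 (57.7%) rose in Ly6C low macrophages without passing the test in Ly6C hi macrophages, 122 (19.4%) fell in Ly6C hi alone, and 66 rose in both. Another 39 fell in Ly6C hi and rose in Ly6C low macrophages, 7 fell in both and 32 passed in neither. Among the 639 negative genes, 296 (46.3%) fell in Ly6C low alone, 146 (22.8%) rose in Ly6C hi alone, and 71 rose in Ly6C hi and fell in Ly6C low macrophages. The other negative genes comprised 86 that fell in both, 34 that rose in both and 6 that passed in neither. For all genes tested, 15.9% rose and 18.9% fell in Ly6C hi macrophages (34.7% in all), 18.7% rose and 25.2% fell in Ly6C low macrophages (43.9% in all), and a gene that passed in 1 subset only is listed here because the interaction itself passed. In bulk RNA, fewer cells of a kind and less RNA per cell cannot be told apart.

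Read as a change of the difference between subsets, the interaction widened that difference for 1040 of the 1268 genes and narrowed it for 228. Of all genes tested, 2.7% were higher and 1.92% lower in Ly6C low than in Ly6C hi macrophages in wild-type liver (4.62% in all), and 11.6% were higher and 12.6% lower in Rnaset2-/- liver (24.1% in all). Of the 1268 genes, 958 differed between subsets in Rnaset2-/- mice only, 101 in wild-type mice only and 67 in both with opposite signs. The remaining genes were 27 that differed in both with the same sign and 115 that differed in neither.

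Wild-type KCs, whose 4 libraries entered none of these tests, gave an independent level for each gene. The median KC level was 80.3 RPM for positive genes, 22.01 RPM for negative genes and 27.9 RPM for all genes tested. Classes differed in this respect. KCs exceeded both wild-type subsets for 305 of the 363 genes that rose in Ly6C low alone (84.0%) and for 64 of the 66 that rose in both, against 7448 of the 12113 genes tested (61.5%). Among negative genes, KCs exceeded both wild-type subsets for 125 of the 146 that rose in Ly6C hi alone (85.6%), for 112 of the 296 that fell in Ly6C low alone (37.8%) and for 4 of the 86 that fell in both (4.65%). These shares are descriptions, since the same wild-type libraries enter both sides.

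The 8 largest positive interactions belonged to Lipg, Tmc3, Hs3st2, Lox, AI606473, C6, Raver2 and Lpl, taken among called genes with a mean of at least 10 RPM in 1 group. Lipg was at 0.309, 1.001 and 0.268 RPM in wild-type and 3.69, 9.42 and 6.77 RPM in Rnaset2-/- Ly6C hi macrophages, against 0, 0 and 0 RPM in wild-type and 74.8, 264 and 146 RPM in Rnaset2-/- Ly6C low macrophages. Lipg encodes endothelial lipase, a phospholipase of the same family as lipoprotein lipase, and its rise of at least 603-fold in Ly6C low macrophages is a lower bound because the wild-type libraries were at 0. Lipg also rose in Ly6C hi macrophages, to lower levels, and its interaction was 5.07 ± 0.56 (SE, adjusted p = 0.000358). Lpl was at 297, 333 and 286 RPM in wild-type and 506, 135 and 104 RPM in Rnaset2-/- Ly6C hi macrophages, against 91.4, 106 and 115 RPM in wild-type and 794, 1540.0 and 726 RPM in Rnaset2-/- Ly6C low macrophages. Lpl, which encodes lipoprotein lipase and is a target of LXRα, thus reached its highest level in Rnaset2-/- Ly6C low macrophages, with no overlap with the other 3 groups, while its Ly6C hi libraries overlapped between genotypes. Its interaction was 4.15 ± 0.71 (SE, adjusted p = 0.00381) and 4.92 without Rnaset2-/- Ly6C hi replicate 1, the library at 506 RPM.

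Lox, which encodes the collagen cross-linking enzyme lysyl oxidase, was at 0.721 ± 0.187 RPM (SD, n = 3) in wild-type and 98.8 ± 71.7 RPM in Rnaset2-/- Ly6C low macrophages, and at 1.54 ± 0.993 and 4.85 ± 0.732 RPM in Ly6C hi macrophages. The interaction of Lox was 4.38 ± 0.81 (SE, adjusted p = 0.00639). C6, a component of the membrane attack complex that KCs express, was at 294, 37.7 and 51.8 RPM in Rnaset2-/- Ly6C low macrophages, at 5.68, 0.85 and 1.77 RPM in Rnaset2-/- Ly6C hi macrophages and at or below 1.43 RPM in all wild-type libraries of both subsets. Tmc3 was at 112, 131 and 96.1 RPM in Rnaset2-/- Ly6C low and 1.38, 4.87 and 4.23 RPM in Rnaset2-/- Ly6C hi macrophages, and its wild-type libraries lay at or below 0.436 RPM. Their wild-type levels lay near the limit of detection, where the size of an interaction depends on how low levels are treated. With edgeR on the recovered reads, the interaction was 3.39 for C6 (adjusted p = 0.395) and 2.99 for Tmc3 (adjusted p = 0.304), below the threshold in both.

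Hs3st2, a heparan sulfate sulfotransferase gene, was at 23.7, 62.1 and 36.1 RPM in Rnaset2-/- Ly6C low macrophages, at least 151-fold above wild-type libraries that held no read. In Ly6C hi macrophages, Hs3st2 was at 0.691, 1.78 and 0.692 RPM in Rnaset2-/- mice. AI606473 and Raver2 had the same shape. AI606473 was at 17.1, 68.4 and 44.3 RPM in Rnaset2-/- Ly6C low and 0.768, 2.16 and 0.615 RPM in Rnaset2-/- Ly6C hi macrophages, with no read in the 6 wild-type libraries. Raver2 was at 51.2, 70.04 and 47.8 and 1.92, 2.01 and 2 RPM in these groups and at 0 in 5 of the 6 wild-type libraries. All 3 passed in limma (interactions of 4.39, 4.28 and 4.17) and none of them with edgeR on the recovered reads. Hs3st2 and AI606473 were larger with edgeR, at 7.44 (adjusted p = 0.126) and 5.34 (adjusted p = 1), while Raver2 was at 1.01 (adjusted p = 0.818) and, with DESeq2, at 1.88 (adjusted p = 0.424).

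The LXRα gene Nr1h3 (mm10 chr2:91184061-91202834) responded mainly in Ly6C low macrophages. Nr1h3 was at 42.5, 48.6 and 51.9 RPM in wild-type and 145, 74.7 and 61.7 RPM in Rnaset2-/- Ly6C hi macrophages, against 42.6, 50.6 and 36.5 RPM in wild-type and 589, 1024 and 773 RPM in Rnaset2-/- Ly6C low macrophages. In deposited RPM, genotypes did not overlap in either subset. Scaling divided the Rnaset2-/- Ly6C hi libraries by 1.009 to 1.206 and the wild-type ones by 0.865 to 0.929. On scaled values the change in Ly6C hi macrophages did not pass the test, and the library that stood apart was the highest there. The interaction of Nr1h3 was 3.57 ± 0.46 (SE, adjusted p = 0.000755), from a change of 0.55 in Ly6C hi and 4.12 in Ly6C low macrophages. Rxra was at 246, 155 and 203 RPM in wild-type and 195, 167 and 207 RPM in Rnaset2-/- Ly6C hi macrophages, against 107, 183 and 142 RPM in wild-type and 836, 671 and 877 RPM in Rnaset2-/- Ly6C low macrophages. Rxra encodes the partner of LXRα, and its genotypes overlapped in Ly6C hi macrophages but not in Ly6C low macrophages, with an interaction of 2.84 ± 0.35 (SE, adjusted p = 0.000689).

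Of 23 LXR targets tested, 5 had a positive (21.7%, against 5.19% of all genes) and 1 a negative interaction (4.35%, against 5.28%). Their median was 0.48 against -0.038 for all genes. The positive ones were Abcg1, a cholesterol exporter, Nr1h3 itself, Lpl, Tgm2 and Npc2, and the negative one was Scd1, the stearoyl-CoA desaturase. Tgm2, a transglutaminase used in the uptake of apoptotic cells, was at 532, 669.6 and 837 RPM in wild-type and 1711, 1735 and 1938 RPM in Rnaset2-/- Ly6C low macrophages, and its Ly6C hi libraries overlapped between genotypes. Tgm2 had an interaction of 1.88 ± 0.39 (SE, adjusted p = 0.011). In the sterol synthesis and uptake list, 1 of 19 genes was positive and none negative, close to the 5.19% of all genes. That gene, Insig1, which retains the sterol sensor in the endoplasmic reticulum, fell in both subsets, from 196 ± 23.6 to 36.4 ± 3.76 RPM in Ly6C hi and from 116 ± 26.3 to 41.8 ± 4.51 RPM in Ly6C low macrophages (SD, n = 3). The fall was larger in Ly6C hi macrophages, with an interaction of 1.26 ± 0.28 (SE, adjusted p = 0.0145).

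**Figure D2:**
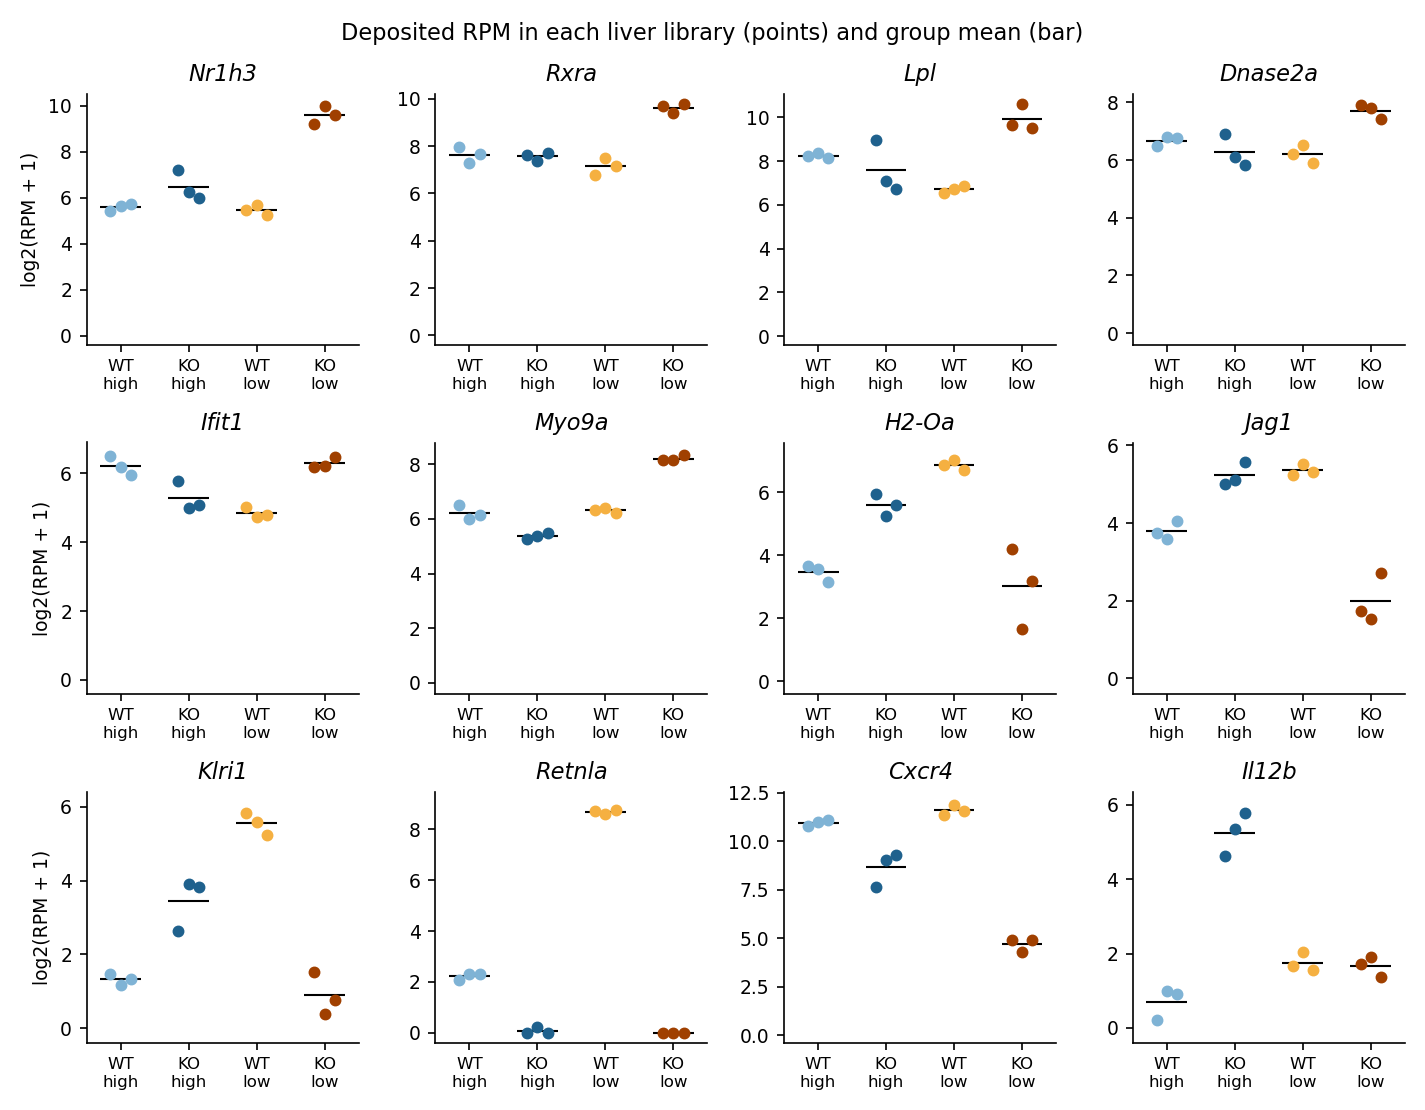
Deposited RPM, plotted as log2(RPM + 1), of 12 genes in each hepatic library, grouped as wild-type (WT) and Rnaset2-/- (KO) Ly6C hi (high) and Ly6C low (low) macrophages, with points in the order of replicates 1 to 3 and a bar at the group mean. Nr1h3, Rxra and Dnase2a stand highest in KO Ly6C low, H2-Oa, Jag1 and Klri1 are above WT in KO Ly6C hi and below it in KO Ly6C low, and Il12b is raised in KO Ly6C hi alone.

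Of 35 macrophage transcription factors, 7 were positive (Maf, Nr1h3, Rxra, Id3, Spic, Zeb2 and Batf3) and 4 negative (Cebpb, Runx3, Zbtb46 and Nfe2). These were 20% and 11.4%, against 5.19% and 5.28% of all genes. Spic, which drives the genes of red pulp and KC iron handling, was at 12.9, 13.9 and 14.3 RPM in wild-type and 203, 114 and 62.6 RPM in Rnaset2-/- Ly6C low macrophages, while all 6 Ly6C hi libraries lay between 14.3 and 24.7 RPM. Its interaction was 2.91 ± 0.49 (SE, adjusted p = 0.00367). Runx3 was at 119.8, 128 and 172 RPM in wild-type and 63.6, 70.3 and 86.5 RPM in Rnaset2-/- Ly6C hi macrophages, against 80.8, 114 and 91.7 RPM in wild-type and 7.85, 3.04 and 2.68 RPM in Rnaset2-/- Ly6C low macrophages. Runx3, a factor of dendritic and lymphoid cells, fell in both subsets and further in Ly6C low macrophages, with an interaction of -3.02 ± 0.43 (SE, adjusted p = 0.00141).

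For 39 positive and 71 negative genes the change reversed between subsets, that is, both changes passed and had opposite signs. The 4 largest among the positive ones, which fell in Ly6C hi and rose in Ly6C low macrophages, were Adk, Paqr5, Myo9a and Grhl1. Myo9a was at 89.7, 63.1 and 69.3 RPM in wild-type and 36.999, 40.1 and 43.6 RPM in Rnaset2-/- Ly6C hi macrophages, against 78.9, 82.3 and 73.999 RPM in wild-type and 281, 280.5 and 323 RPM in Rnaset2-/- Ly6C low macrophages. Myo9a encodes an unconventional myosin, and neither subset overlapped between genotypes. The changes of Myo9a were -1.17 in Ly6C hi and 1.87 in Ly6C low macrophages, with an interaction of 3.04 ± 0.23 (SE, adjusted p = 5.34e-05). Adk was at 32.3, 28.4 and 32.3 RPM in wild-type and 15.7, 25.8 and 20.8 RPM in Rnaset2-/- Ly6C hi macrophages, against 31.9, 35.7 and 43.4 RPM in wild-type and 199.5, 146 and 286 RPM in Rnaset2-/- Ly6C low macrophages. Adk encodes adenosine kinase, which returns adenosine to AMP, and its interaction was 3.30 ± 0.35 (SE, adjusted p = 0.000317). Grhl1 followed at 6.25, 4.59 and 6.98 RPM in wild-type and 1.23, 1.004 and 2.15 RPM in Rnaset2-/- Ly6C hi macrophages, against 4.88, 5.40 and 3.13 RPM in wild-type and 10.3, 14.9 and 10.2 RPM in Rnaset2-/- Ly6C low macrophages. Grhl1 and Paqr5 stayed at or below 14.9 RPM in all libraries, with interactions of 2.95 ± 0.38 (SE, adjusted p = 0.000755) and 3.06 ± 0.43 (SE, adjusted p = 0.00128).

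Of 28 KC identity genes tested (median 1.12), 8 had a positive interaction (28.6%, against 5.19% of all genes) and none a negative one. These were Id3, Nr1h3, Spic, C6, Kcna2, Clec1b, Paqr9 and Wfdc17, while 19 of the 28 rose in Ly6C low and 11 in Ly6C hi macrophages. Wfdc17 was at 469, 519 and 588 RPM in wild-type and 623, 336 and 252 RPM in Rnaset2-/- Ly6C hi macrophages, against 262, 350.0 and 419 RPM in wild-type and 2010.1, 3333 and 3561 RPM in Rnaset2-/- Ly6C low macrophages. Wfdc17, a secreted antiprotease of activated macrophages, had genotypes that overlapped in Ly6C hi but not in Ly6C low macrophages, and an interaction of 3.86 ± 0.51 (SE, adjusted p = 0.000916). Clec1b, which encodes the podoplanin receptor CLEC-2 of platelets and KCs, rose in both subsets, from 5.26 ± 0.316 to 31.3 ± 10.9 RPM in Ly6C hi and from 29.4 ± 3.72 to 459 ± 199 RPM in Ly6C low macrophages, with an interaction of 1.81 ± 0.42 (SE, adjusted p = 0.0183). Several well-known KC markers did not pass for the interaction.

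Timd4, the phosphatidylserine receptor of long-lived KCs, was at 66.8, 10.04 and 13.02 RPM in Rnaset2-/- Ly6C low and 7.29, 2.01 and 0.923 RPM in Rnaset2-/- Ly6C hi macrophages, with an interaction of 2.13 ± 0.91 (SE, adjusted p = 0.161) that passed without the library that stood apart (2.77, adjusted p = 0.0332) and with a replicate block within genotype (adjusted p = 0.00843). Clec4f, a lectin restricted to KCs, rose in both subsets and had an interaction of 0.60 ± 0.70 (SE, adjusted p = 0.675). Cd5l and C1qb, which encode a scavenger protein under LXRα and a chain of complement C1q, also rose in both subsets. Cd5l had an interaction of 0.67 ± 0.50 (SE, adjusted p = 0.443) and C1qb of 0.77 ± 0.96 (SE, adjusted p = 0.702), and without the library that stood apart these were 1.14 (adjusted p = 0.0383) and 1.89 (adjusted p = 0.00314). With edgeR on the recovered reads the interactions of Clec4f, Cd5l and C1qb were negative and did not pass, whereas with an added value of 5 RPM Cd5l passed at 2.003 (adjusted p = 0.0217). The KC libraries were at 365 ± 133 RPM for Timd4 and 4197 ± 1709 RPM for Clec4f (SD, n = 4), above every Ly6C low library.

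Genes that take up dead cells and recycle iron moved in both directions. Of 22 clearance receptors and bridging molecules, 4 were positive (Axl, Itgb5, Cd300lf and Tgm2) and 2 negative (Stab1 and Cd36), with a median of 0.14. The shares were 18.2% and 9.09%, against 5.19% and 5.28% of all genes. Axl was at 96.4, 114 and 113 RPM in wild-type and 134, 31.8 and 46.7 RPM in Rnaset2-/- Ly6C hi macrophages, against 87.9, 107 and 106 RPM in wild-type and 359, 353 and 237 RPM in Rnaset2-/- Ly6C low macrophages. Axl and Mertk encode related receptors for phosphatidylserine bridged by Gas6, and Axl fell in Ly6C hi macrophages, where replicate 1 lay above wild-type, and rose in Ly6C low macrophages, with an interaction of 2.78 ± 0.60 (SE, adjusted p = 0.0137). Mertk rose in both subsets and had an interaction of 0.48 ± 0.71 (SE, adjusted p = 0.759), so a difference between subsets was not detected for it. Cd36 was at 115, 84.7 and 99.02 RPM in wild-type and 27.1, 169 and 189 RPM in Rnaset2-/- Ly6C hi macrophages, against 421, 429 and 388 RPM in wild-type and 30.8, 15.4 and 33.2 RPM in Rnaset2-/- Ly6C low macrophages. Cd36, a scavenger receptor for oxidised lipids, fell in Ly6C low macrophages in all 3 libraries, whereas its Rnaset2-/- Ly6C hi libraries lay on both sides of wild-type, and its interaction was -3.64 ± 0.75 (SE, adjusted p = 0.0107). The iron and heme list held 3 positive genes of 18 (Spic, Blvra and Slc11a2, 16.7%) and 1 negative (Hp, 5.56%). Blvra, which encodes biliverdin reductase A, was at 110.5, 118 and 144 RPM in Rnaset2-/- Ly6C low macrophages and at or below 44.1 RPM in the other 9 libraries, with an interaction of 2.57 ± 0.39 (SE, adjusted p = 0.00202).

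RNase T2 acts in lysosomes. Of 45 lysosomal genes tested (median 0.75), 13 had a positive interaction (28.9%, against 5.19% of all genes) and 1, Arsb, a negative one. With RPM as deposited, 8 were positive and 2 negative, without the library that stood apart 22 were positive and 1 negative, and without wild-type Ly6C low replicate 3, 6 were positive and none negative. Over all genes, the positive counts in these settings were 331, 1084 and 318, against 629. Among these 45, 19 rose and 6 fell in Ly6C low macrophages, while 2 rose and 8 fell in Ly6C hi macrophages. Dnase2a was at 87.9, 110.2 and 107 RPM in wild-type and 117, 67.3 and 56.4 RPM in Rnaset2-/- Ly6C hi macrophages, against 72.3, 91.1 and 58.4 RPM in wild-type and 238, 222 and 169 RPM in Rnaset2-/- Ly6C low macrophages. Dnase2a, the acid DNase of lysosomes, had genotypes that overlapped in Ly6C hi but not in Ly6C low macrophages, and an interaction of 2.19 ± 0.41 (SE, adjusted p = 0.00683). Atp6v1a, a subunit of the proton pump, fell in Ly6C hi macrophages, from 179.9 ± 10.5 to 74.7 ± 14.7 RPM (SD, n = 3), and did not pass in Ly6C low macrophages (108 ± 16.4 and 128 ± 14.4 RPM). Atp6v1a had an interaction of 1.82 ± 0.29 (SE, adjusted p = 0.00259).

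The receptors and partners that sense nucleic acids in endosomes held 5 positive genes of 17 tested (Unc93b1, Hsp90b1, Myd88, Irak3 and Slc15a3) and no negative one, with a median of 0.30. The positive share was 29.4%, against 5.19% of all genes. Unc93b1 was at 1194, 1141 and 1302 RPM in wild-type and 2151, 1323 and 1104 RPM in Rnaset2-/- Ly6C hi macrophages, against 1099.7, 1268 and 967 RPM in wild-type and 3042, 3314 and 4488 RPM in Rnaset2-/- Ly6C low macrophages. Unc93b1 carries the nucleic acid-sensing TLRs to endosomes, and its genotypes were separate in Ly6C low macrophages but overlapped in Ly6C hi macrophages, where replicate 1 was the highest. Its interaction of 1.71 ± 0.42 (SE, adjusted p = 0.0232) lost its call in 6 of 12 fits that left out 1 library, with values between 1.46 and 2.07. Irak3, an inhibitory kinase of TLR signaling, rose in both subsets and more in Ly6C low macrophages, where it went from 131, 111 and 117 to 443, 439 and 444 RPM, with an interaction of 1.19 ± 0.23 (SE, adjusted p = 0.00797). Slc15a3, a transporter of endolysosomal peptides, was at 693, 654 and 336 RPM in Rnaset2-/- and 62.4, 98.6 and 72.3 RPM in wild-type Ly6C low macrophages, with an interaction of 2.39 ± 0.49 (SE, adjusted p = 0.0106). With RPM as deposited, 3 genes of this list were positive, and without wild-type Ly6C low replicate 3, 2 were.

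Of 34 interferon-stimulated genes (ISGs), 7 had a positive interaction (20.6%, against 5.19% of all genes) and none a negative one, with a median of 0.37. They were Ifit1, Ifit2, Oasl1, Irf7, Ifih1, Cmpk2 and Trim30a. In Ly6C hi macrophages 13 ISGs fell and none rose, and in Ly6C low macrophages 6 rose and 7 fell. Ifit1 was at 90.1, 71.7 and 60.4 RPM in wild-type and 54.4, 30.9 and 32.8 RPM in Rnaset2-/- Ly6C hi macrophages, against 31.7, 25.9 and 26.5 RPM in wild-type and 72.1, 74.005 and 87.7 RPM in Rnaset2-/- Ly6C low macrophages. Ifit1, which binds foreign RNA ends, fell in Ly6C hi and rose in Ly6C low macrophages without overlap in either, and its interaction was 2.66 ± 0.36 (SE, adjusted p = 0.00102). Cmpk2 likewise fell from 189 ± 9.06 to 108 ± 44.8 RPM in Ly6C hi and rose from 77.7 ± 11.3 to 122 ± 10.8 RPM in Ly6C low macrophages (SD, n = 3), with an interaction of 1.84 ± 0.34 (SE, adjusted p = 0.00592). Ifih1, which encodes the RNA sensor MDA5, had an interaction of 1.30 ± 0.36 (SE, adjusted p = 0.0385) and lost its call in 9 of 12 fits that left out 1 library. Rsad2, Mx1 and Oas1a, which encode antiviral effectors, had interactions of 1.59, -0.50 and 0.15 (adjusted p = 0.208, 0.629 and 0.832). With RPM as deposited, 4 ISGs were positive and none negative, and without wild-type Ly6C low replicate 3, 5 were positive.

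Respiratory chain genes held 4 positive members of 29 (Ndufa4, Ndufs1, Ndufv2 and Sdhd) and none negative, with a median of 0.42. The positive share was 13.8%, against 5.19% of all genes. Sdhd, a membrane subunit of complex II, was at 109.5, 166 and 137 RPM in wild-type and 339, 286 and 347 RPM in Rnaset2-/- Ly6C low macrophages, and had an interaction of 1.41 ± 0.37 (SE, adjusted p = 0.0314). The count of this list moved with the scaling and with 1 library, as did the count over all genes. With RPM as deposited 1 member was positive (331 of 12113 genes in all), and without wild-type Ly6C low replicate 3 none was (318 of 11963).

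Negative interactions were larger than positive ones at their extreme on the log2(RPM + 1) scale. Sizes near 0 RPM depend on the added value, and over the other settings Lipg reached 10.7 and Prg4 -10.2. The 8 largest negative interactions belonged to H2-M2, Klri1, Apol7c, Retnla, Cacnb3, Prg4, H2-Oa and Mreg, and 4 of these, H2-M2, Klri1, Apol7c and Cacnb3, were also the largest of the 71 that rose in Ly6C hi and fell in Ly6C low macrophages. Klri1 was at 1.77, 1.25 and 1.52 RPM in wild-type and 5.14, 14.1 and 13.1 RPM in Rnaset2-/- Ly6C hi macrophages, against 56.5, 47.1 and 37.04 RPM in wild-type and 1.85, 0.311 and 0.689 RPM in Rnaset2-/- Ly6C low macrophages. Klri1 (mm10 chr6:129697218-129717132), a killer cell lectin-like receptor gene, rose in Ly6C hi and fell in Ly6C low macrophages without overlap in either, with an interaction of -6.57 ± 0.48 (SE, adjusted p = 5.21e-05). Cacnb3 was at 0.386, 0.167 and 0.716 RPM in wild-type and 8.52, 28.5 and 37.4 RPM in Rnaset2-/- Ly6C hi macrophages, against 9.35, 7.495 and 5.10 RPM in wild-type and 0.385, 0.623 and 0.383 RPM in Rnaset2-/- Ly6C low macrophages. Cacnb3, which encodes a calcium channel subunit, had an interaction of -6.26 ± 0.56 (SE, adjusted p = 0.000118). Mreg, a gene of vesicle trafficking, was at 9.21, 26.8 and 36.1 RPM in Rnaset2-/- Ly6C hi and 1.77, 3.42 and 2.30 RPM in Rnaset2-/- Ly6C low macrophages, with the opposite order in wild-type mice (0.386, 3.25 and 1.52 and 23.3, 22.1 and 16.2 RPM) and an interaction of -5.57 ± 0.63 (SE, adjusted p = 0.000422).

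H2-M2 and Apol7c were raised most in the library that stood apart. H2-M2, a nonclassical MHC class I gene, was at 96.4, 4.56 and 10.4 RPM in Rnaset2-/- Ly6C hi and 15.3, 0.078 and 0.077 RPM in Rnaset2-/- Ly6C low macrophages, replicate 1 being the highest in both. Its wild-type libraries held 0.695, 1.42 and 0.089 RPM in Ly6C hi and 30.8, 39.7 and 42.6 RPM in Ly6C low macrophages. Its interaction of -7.15 ± 1.54 (SE, adjusted p = 0.0132) was -5.88 without Rnaset2-/- Ly6C hi replicate 1 (adjusted p = 0.00692). Apol7c, an apolipoprotein L gene of dendritic cells, was at 146, 17.996 and 31.4 RPM and 21.2, 0.311 and 0.536 RPM in these groups, with an interaction of -6.53 ± 1.36 (SE, adjusted p = 0.0113), or -5.60 without that library. Retnla fell in both subsets and Prg4 in Ly6C low macrophages alone. Retnla (mm10 chr16:48842551-48844461), which encodes the alternative activation product RELMα, was at 418, 389 and 431 RPM in wild-type Ly6C low macrophages and had no read in any Rnaset2-/- Ly6C low library, at least 1770-fold lower, while wild-type Ly6C hi macrophages held only 3.16, 4.005 and 3.94 RPM. The interaction of Retnla was -6.42 ± 0.26 (SE, adjusted p = 1.03e-07). Prg4, which encodes the lubricant proteoglycan 4 of peritoneal and joint surfaces, was at 26.7, 50.9 and 80.98 RPM in wild-type Ly6C low macrophages and at or below 1.004 RPM in all other libraries, with an interaction of -5.74 ± 0.53 (SE, adjusted p = 0.00013).

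MHC class II molecules present peptides to CD4 T cells, and of 16 class II genes tested 4 had a negative interaction (H2-Eb2, H2-DMb2, H2-Oa and H2-Ob) and none a positive one, with a median of -2.92. The negative share was 25%, against 5.28% of all genes. In Ly6C low macrophages 10 of the 16 fell and none rose, and in Ly6C hi macrophages 4 rose and 2 fell. H2-Oa was at 11.7, 10.9 and 7.78 RPM in wild-type and 61.03, 36.5 and 47.2 RPM in Rnaset2-/- Ly6C hi macrophages, against 115, 128 and 103 RPM in wild-type and 17.3, 2.18 and 8.12 RPM in Rnaset2-/- Ly6C low macrophages. H2-Oa and H2-Ob encode the chains of H2-O, which restrains peptide loading by H2-M, and H2-DMb2 a chain of H2-M itself. H2-Oa (mm10 chr17:34092340-34095234) had an interaction of -5.69 ± 0.69 (SE, adjusted p = 0.000583). H2-Ob went from 9.99 ± 1.74 to 53.5 ± 13.2 RPM in Ly6C hi and from 80.7 ± 16.2 to 17.6 ± 6.81 RPM in Ly6C low macrophages (SD, n = 3), with an interaction of -4.20 ± 0.40 (SE, adjusted p = 0.000188). H2-DMb2 showed the same order, with 122, 124 and 144 RPM in Rnaset2-/- Ly6C hi and 40.5, 15.8 and 33.4 RPM in Rnaset2-/- Ly6C low macrophages and an interaction of -4.11 ± 0.41 (SE, adjusted p = 0.000225). Without the library that stood apart, 1 class II gene was positive and 4 were negative, and without replicate 1 of both Rnaset2-/- subsets 2 were positive and 12 negative. Conventional dendritic cells, which express class II, had markers that summed to 866 to 910.5 RPM in wild-type and 594 to 1339 RPM in Rnaset2-/- Ly6C hi macrophages, and to 1188 to 1539.9 and 732 to 1078 RPM in Ly6C low macrophages. B and plasma cell markers summed to 87.8 to 139 RPM in wild-type and 275 to 1314 RPM in Rnaset2-/- Ly6C hi macrophages. In Ly6C low macrophages they summed to 116 to 152 and 325 to 573 RPM. The part of dendritic and B cells in the class II result was not tested.

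List counts moved with single libraries, as did the counts over all genes. Those counts went from 629 positive and 639 negative to 1084 and 1259 without the library that stood apart. Without wild-type Ly6C low replicate 3 they were 318 and 354. Without the library that stood apart, positive and negative members were 12 and 3 for KC identity genes, 8 and 1 for LXR targets, 6 and 1 for heme and iron genes and 5 and 6 for clearance genes. They were 10 and 11 for transcription factors, 7 and 2 for cytokine genes, 7 and 4 for Notch and TGF-β family genes, 8 and 0 for respiratory chain genes and 4 and 5 for Fc and Ig-like receptor genes. Without wild-type Ly6C low replicate 3, they were 1 and 3 for classical monocyte genes, 2 and 2 for clearance genes, 4 and 2 for transcription factors, 1 and 6 for chemokine and receptor genes, 0 and 1 for Fc and Ig-like receptor genes and 1 and 2 for Notch and TGF-β family genes.

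**Figure D3:**
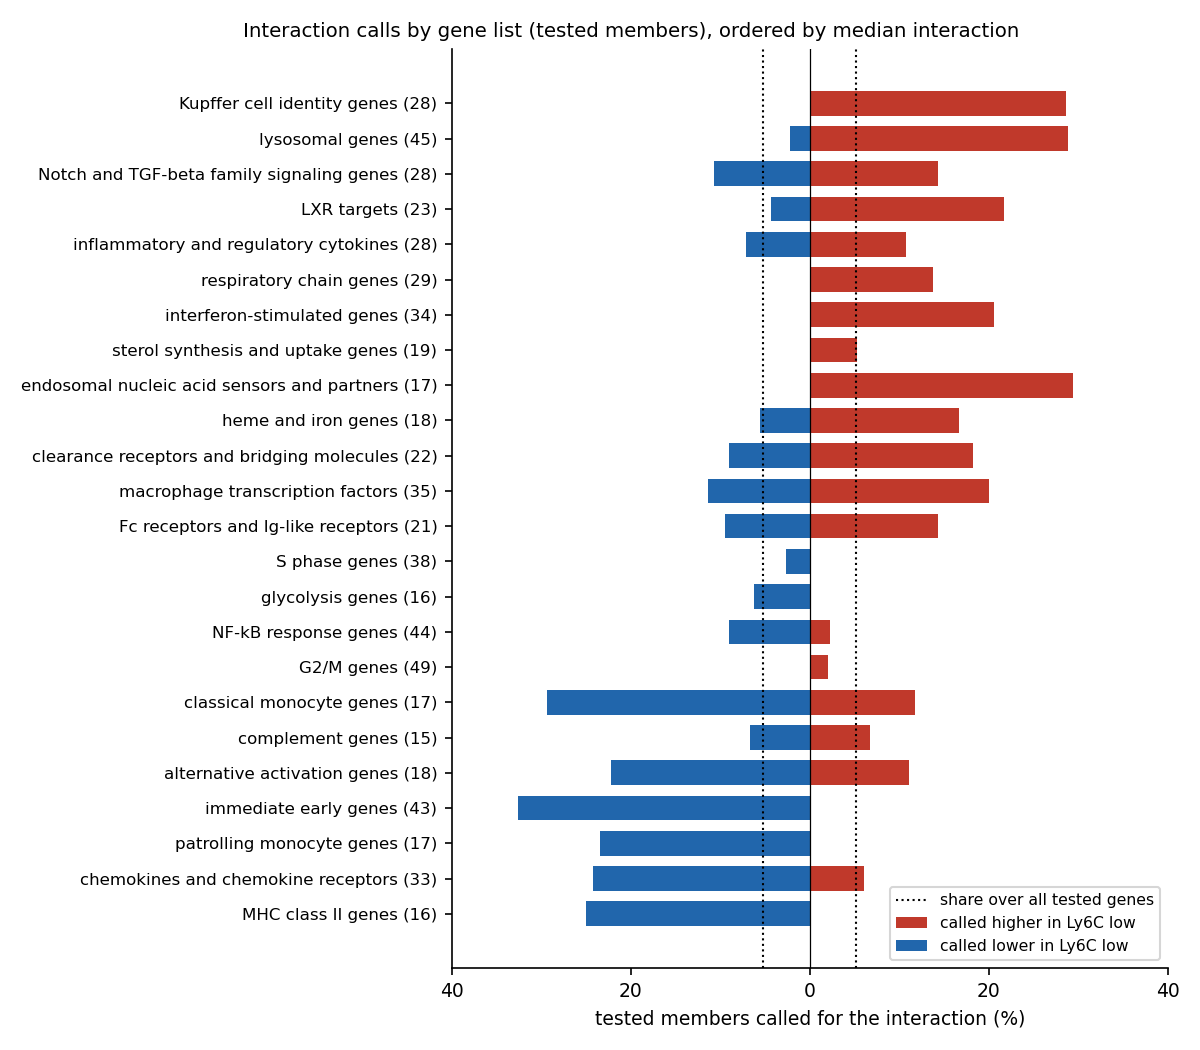
Share of the tested members of each gene list (number in parentheses) with a positive (red, to the right) or negative (blue, to the left) interaction, with lists ordered by the median interaction of their members and dotted lines at the shares of all genes, 5.19% and 5.28%. Kupffer cell identity and lysosomal genes lie at the top and chemokine and MHC class II genes at the bottom.

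Immediate early genes are induced within minutes of stimulation. Of 43 tested, 14 had a negative interaction (32.6%, against 5.28% of all genes) and none a positive one, with a median of -1.09. These genes fell in both subsets, 37 of these 43 in Ly6C hi macrophages and 41 in Ly6C low macrophages, and for the 14 the change was more negative in Ly6C low macrophages. Jun was at 1732, 2309 and 1716 RPM in wild-type and 359, 489.5 and 628 RPM in Rnaset2-/- Ly6C hi macrophages, against 2775, 2244 and 3303 RPM in wild-type and 89.8, 57.3 and 99.7 RPM in Rnaset2-/- Ly6C low macrophages. Jun, a subunit of AP-1, had an interaction of -2.80 ± 0.35 (SE, adjusted p = 0.000755). Hspa1a and Hspa1b, whose near-identical transcripts for the heat shock protein HSP70 may share reads, had interactions of -3.45 ± 0.49 (SE, adjusted p = 0.00157) and -3.64 ± 0.64 (SE, adjusted p = 0.00449). Hspa1a reached 1189, 1623 and 2082 RPM in wild-type and 34.4, 40.2 and 38.97 RPM in Rnaset2-/- Ly6C low macrophages, against 529.5, 811 and 1047 and 131, 292 and 411 RPM in Ly6C hi macrophages. Without wild-type Ly6C low replicate 3, 6 of 42 immediate early genes were negative.

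Of 33 chemokine and chemokine receptor genes, 8 were negative (Ccl9, Ccl22, Cxcl2, Pf4, Ccr2, Ccr7, Ccrl2 and Cxcr4) and 2 positive (Cxcl14 and Ccr3), with a median of -1.22. The shares were 24.2% negative and 6.06% positive, against 5.28% and 5.19% of all genes. Cxcr4 was at 1763, 2019 and 2199 RPM in wild-type and 202, 527 and 629.8 RPM in Rnaset2-/- Ly6C hi macrophages, against 2625, 3791 and 3039 RPM in wild-type and 28.6, 18.8 and 28.9 RPM in Rnaset2-/- Ly6C low macrophages. Cxcr4, the receptor that retains myeloid cells in marrow, fell without overlap in both subsets and further in Ly6C low macrophages, with an interaction of -4.32 ± 0.46 (SE, adjusted p = 0.000317). Ccl22 was at 43.1, 74.6 and 48.8 RPM in wild-type and 20.1, 79.6 and 82.4 RPM in Rnaset2-/- Ly6C hi macrophages, against 115, 163 and 128 RPM in wild-type and 0.616, 1.25 and 1.99 RPM in Rnaset2-/- Ly6C low macrophages. Ccl22, which attracts regulatory T cells, fell in Ly6C low macrophages, while its Ly6C hi libraries overlapped between genotypes, and its interaction was -5.55 ± 0.59 (SE, adjusted p = 0.000317). Pf4, the platelet factor 4 that macrophages also express, rose in Ly6C hi from 0.695, 5.09 and 1.25 to 22.2, 5.87 and 21.7 RPM and fell in Ly6C low macrophages from 44.2, 70.4 and 114 to 8.31, 6.54 and 4.36 RPM, with an interaction of -5.53 ± 0.79 (SE, adjusted p = 0.00157).

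Most of the monocyte genes with an interaction had a negative one. Of 17 classical monocyte genes, 5 were negative (Ccr2, Fn1, Hp, Gda and Ifitm6) and 2 positive, Mmp8 among them, and of 17 patrolling monocyte genes 4 were negative (Fabp4, Cebpb, Cd36 and Pglyrp1) and none positive. Their medians were -0.64 and -1.11, and their negative shares 29.4% and 23.5%, against 5.28% of all genes. Of the classical monocyte genes 11.8% were positive, against 5.19% of all genes. Without the library that stood apart, 11 patrolling monocyte genes were negative. Fn1 was at 1050.1, 889 and 1285 RPM in wild-type and 97.7, 437 and 565 RPM in Rnaset2-/- Ly6C hi macrophages, against 221, 391 and 461 RPM in wild-type and 6.62, 4.51 and 4.29 RPM in Rnaset2-/- Ly6C low macrophages. Fn1, which encodes fibronectin, fell in both subsets, with an interaction of -3.65 ± 0.69 (SE, adjusted p = 0.00686). Ccr2 was at 558, 548 and 352 RPM in wild-type and 462, 401 and 336 RPM in Rnaset2-/- Ly6C hi macrophages, against 219, 142 and 154 RPM in wild-type and 43.3, 8.56 and 6.28 RPM in Rnaset2-/- Ly6C low macrophages. Ccr2, which draws monocytes into tissue, had overlapping genotypes in Ly6C hi macrophages and fell in Ly6C low macrophages, with an interaction of -2.99 ± 0.73 (SE, adjusted p = 0.0228) that lost its call in 4 of 12 fits that left out 1 library. Cx3cr1, the fractalkine receptor of patrolling monocytes, had an interaction of -2.05 ± 0.67 (SE, adjusted p = 0.0717) and passed without the library that stood apart (-2.76, adjusted p = 0.000448) and with edgeR on the recovered reads (-2.33, adjusted p = 0.0461). Mmp8, a collagenase, went the other way. It fell from 109 ± 3.37 to 27.8 ± 11.1 RPM in Ly6C hi macrophages and was at 3.71 ± 0.33 and 7.56 ± 4.99 RPM in Ly6C low macrophages (SD, n = 3), with an interaction of 3.03 ± 0.47 (SE, adjusted p = 0.00229).

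Among cytokine genes, 3 of 28 were positive (Il1b, Il18 and Tgfb1) and 2 negative (Il12b and Ifnb1). These were 10.7% and 7.14%, against 5.19% and 5.28% of all genes. Il12b was at 0.154, 1.001 and 0.895 RPM in wild-type and 23.5, 39.5 and 54.1 RPM in Rnaset2-/- Ly6C hi macrophages, against 2.15, 3.14 and 1.97 RPM in wild-type and 2.31, 2.72 and 1.61 RPM in Rnaset2-/- Ly6C low macrophages. Il12b, which encodes the p40 chain of IL-12 and IL-23, rose in Ly6C hi macrophages in all 3 libraries and did not pass in Ly6C low macrophages, with an interaction of -4.42 ± 0.43 (SE, adjusted p = 0.000211). Il18 was at 72.5, 64.3 and 67.4 RPM in wild-type and 74.6, 31.4 and 33.6 RPM in Rnaset2-/- Ly6C hi macrophages, against 32.8, 35.8 and 35.2 RPM in wild-type and 154, 87.5 and 106 RPM in Rnaset2-/- Ly6C low macrophages. Il18, an inflammasome-processed cytokine, fell in Ly6C hi macrophages, though not in replicate 1, and rose in Ly6C low macrophages, with an interaction of 2.62 ± 0.47 (SE, adjusted p = 0.00507). Ifnb1, which encodes interferon-β, was at 4.14, 18.8 and 16.8 RPM in wild-type and 0.231, 0.078 and 0.077 RPM in Rnaset2-/- Ly6C low macrophages, at or below the limit of detection in the latter, and its interaction of -2.78 ± 0.65 (SE, adjusted p = 0.019) lost its call in 2 of 12 fits that left out 1 library. Il10, a regulatory cytokine, fell in Ly6C hi macrophages (-1.92) and had an interaction of 2.31 ± 0.75 (SE, adjusted p = 0.0708). Il10 passed at a similar size with the replicate number as a block (adjusted p = 0.0144, or 0.00252 with the block within genotype), with DESeq2 on the recovered reads (adjusted p = 0.0172) and with all 29 libraries in the fit (adjusted p = 0.026). Tnf and Il6, which fell in both subsets, had interactions of 0.045 and 0.09 (adjusted p = 0.983 and 0.968).

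Signals from the sinusoidal niche that instruct KCs run through Notch and the TGF-β family. Of 28 such genes, 4 were positive (Tgfb1, Tgfbr2, Acvrl1 and Id3) and 3 negative (Nrarp, Jag1 and Smad3). These were 14.3% and 10.7%, against 5.19% and 5.28% of all genes. Jag1 was at 12.4, 10.9 and 15.7 RPM in wild-type and 30.9, 33.6 and 46.6 RPM in Rnaset2-/- Ly6C hi macrophages, against 36.8, 44.8 and 38.9 RPM in wild-type and 2.31, 1.87 and 5.51 RPM in Rnaset2-/- Ly6C low macrophages. Jag1, a Notch ligand, rose in Ly6C hi and fell in Ly6C low macrophages without overlap in either, with an interaction of -4.52 ± 0.42 (SE, adjusted p = 0.000139). Acvrl1, which encodes the BMP9 and BMP10 receptor ALK1, was at 19.9, 21.4 and 21.6 RPM in wild-type and 136, 129 and 73.9 RPM in Rnaset2-/- Ly6C low macrophages, with an interaction of 1.92 ± 0.34 (SE, adjusted p = 0.00488). With RPM as deposited, 1 of these genes was positive and 3 were negative, and with TMM scaling 7 were positive and 3 negative.

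The remaining macrophage lists varied, set against 5.19% positive and 5.28% negative over all genes tested. Alternative activation genes (11.1% positive and 22.2% negative) and Fc and Ig-like receptor genes (14.3% and 9.52%) lay above both shares. Of 44 NF-kB response genes, 1 was positive (Il1b) and 4 negative (Cxcl2, Traf1, Il12b and Plaur), although 23 fell in Ly6C hi and 27 in Ly6C low macrophages. S phase, G2/M and glycolysis genes passed rarely, with 1 negative S phase gene of 38 (Prim1), 1 positive G2/M gene of 49 (Kif23) and 1 negative glycolysis gene of 16 (Slc16a3), to which 5 positive ones were added without the library that stood apart. Plaur, the urokinase receptor gene, fell in both subsets, and its interaction was -2.02 ± 0.38 (SE, adjusted p = 0.00645). Of 21 Fc and Ig-like receptor genes, 3 were positive (Fcgr1, Fcrl5 and Cd300lf) and 2 negative (Fcrls and Trem1). Trem1 was at 124, 189 and 226 RPM in wild-type and 10.3, 46.03 and 48.9 RPM in Rnaset2-/- Ly6C hi macrophages, against 317, 485 and 417 RPM in wild-type and 7.70, 2.18 and 1.53 RPM in Rnaset2-/- Ly6C low macrophages. Trem1 encodes an amplifier of myeloid inflammation, and its interaction was -3.75 ± 0.74 (SE, adjusted p = 0.00858). Complement genes held 1 positive member (C6) of 15, and alternative activation genes 2 positive (Il4ra and Tgm2) and 4 negative members (Retnla, Mgl2, Clec10a and Ccl22) of 18, or 8 negative ones without the library that stood apart.

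The Rnaset2-/- Ly6C hi libraries held more of several markers of other liver cells. Of 18 T cell markers, 9 were at or under 3 reads in wild-type Ly6C hi macrophages, Cd3e and Cd3d among them, and 0 in Rnaset2-/- Ly6C hi macrophages. The 18 T cell markers summed to 22.1 to 42.7 RPM in wild-type and 346 to 638 RPM in Rnaset2-/- Ly6C hi macrophages, against 19.6 to 37 and 63.4 to 206 RPM in Ly6C low macrophages. The 18 NK cell and ILC1 markers summed to 45.2 to 63.4 and 475 to 1046 RPM in Ly6C hi and to 37.3 to 41.9 and 46.3 to 141 RPM in Ly6C low macrophages. Genotypes did not overlap in these sums in either subset, and the groups of 3 Rnaset2-/- Ly6C hi libraries were the highest. Of the markers tested, 4 of 16 for T cells, 5 of 17 for NK cells and 4 of 14 for B and plasma cells had a negative interaction and none a positive one. These were 25%, 29.4% and 28.6%, against 5.28% of all genes. Without the library that stood apart they were 3 of 16, 13 of 16 and 7 of 14. Without wild-type Ly6C low replicate 3 they were 2 of 16, 4 of 17 and 2 of 14. Cd247, the ζ chain of the T cell receptor complex, was at 24.7, 22.6 and 23.2 RPM in Rnaset2-/- Ly6C hi and 6.39, 2.96 and 4.21 RPM in Rnaset2-/- Ly6C low macrophages and at or below 0.179 RPM in wild-type libraries, with an interaction of -1.91 ± 0.37 (SE, adjusted p = 0.00784) that did not pass with edgeR on the recovered reads (adjusted p = 0.542). Tbx21, the T-bet gene of NK and Th1 cells, was at 20.5, 26.3 and 34.5 RPM in Rnaset2-/- Ly6C hi and 6.62, 1.25 and 2.14 RPM in Rnaset2-/- Ly6C low macrophages, with an interaction of -3.34 ± 0.57 (SE, adjusted p = 0.00402).

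Liver endothelial markers, 20 in number, summed to 287 to 344 RPM in wild-type and 1275 to 5745 RPM in Rnaset2-/- Ly6C hi macrophages and to 525 to 986 and 2016 to 5742 RPM in Ly6C low macrophages. Of the 20, 19 rose in Ly6C hi and 3 in Ly6C low macrophages. A negative interaction was called for 4 (Lyve1, Tie1, Egfl7 and Ramp2), 20% against 5.28% of all genes. It was called for 14 without the library that stood apart and for 1 without wild-type Ly6C low replicate 3. Egfl7 and Ramp2 each lost the call in 9 of 12 fits that left out 1 library. Lyve1 was at 3.94, 5.01 and 7.51 RPM in wild-type and 57.6, 175 and 177 RPM in Rnaset2-/- Ly6C hi macrophages, against 33.4, 52.7 and 39.9 RPM in wild-type and 20.7, 36.2 and 141 RPM in Rnaset2-/- Ly6C low macrophages. Lyve1, the hyaluronan receptor of sinusoidal and lymphatic endothelium, was lowest of the Rnaset2-/- Ly6C hi libraries in replicate 1, and its interaction was -3.80 ± 0.82 (SE, adjusted p = 0.0137). The conventional dendritic cell sums given above overlapped between genotypes in Ly6C hi and lay lower in Rnaset2-/- than in wild-type Ly6C low macrophages. In this list 8 of 16 were negative (Flt3, Zbtb46, Itgae, Clec10a, Ccr7, Kmo, Fscn1 and Mgl2), 50% against 5.28% of all genes. Batf3 alone was positive, and the median was -1.89. Fscn1, an actin bundler of migrating dendritic cells, was at 12.1, 35.8 and 39.6 RPM in Rnaset2-/- and 0.849, 0.584 and 0.268 RPM in wild-type Ly6C hi macrophages, with an interaction of -4.12 ± 0.61 (SE, adjusted p = 0.0017).

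T cell and endothelial sums were higher in Rnaset2-/- than in wild-type libraries of both subsets. H2-Oa and Jag1 rose in Ly6C hi and fell in Ly6C low macrophages, and Il12b rose in Ly6C hi macrophages alone. The part of other cell types in the class II, Jag1 and Il12b results was not tested. Neutrophil markers summed to 358 to 2581 and 368 to 1918 RPM in Ly6C hi macrophages, and 1 of 15, Ltb4r1, had a negative interaction. Hepatocyte and erythroid markers held no member with an interaction, of 15 and 11 tested, against 5.19% positive and 5.28% negative over all genes. Megakaryocyte and platelet markers had 2 positive (Ppbp and Clec1b) and 3 negative members (Pf4, Vwf and Itgb3) of 11, the plasmacytoid dendritic cell list 2 positive of 11 (Cox6a2 and Klra17), the eosinophil, basophil and mast cell list 1 positive (Ccr3) and 1 negative (Mcpt8) of 11, and the stellate cell and fibroblast list 1 negative of 8 (Ecm1). Without wild-type Ly6C low replicate 3, these lists held 1 positive and 1 negative megakaryocyte and platelet marker, 1 positive plasmacytoid dendritic cell marker and 0 eosinophil, basophil and mast cell markers with an interaction.

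**Figure D4:**
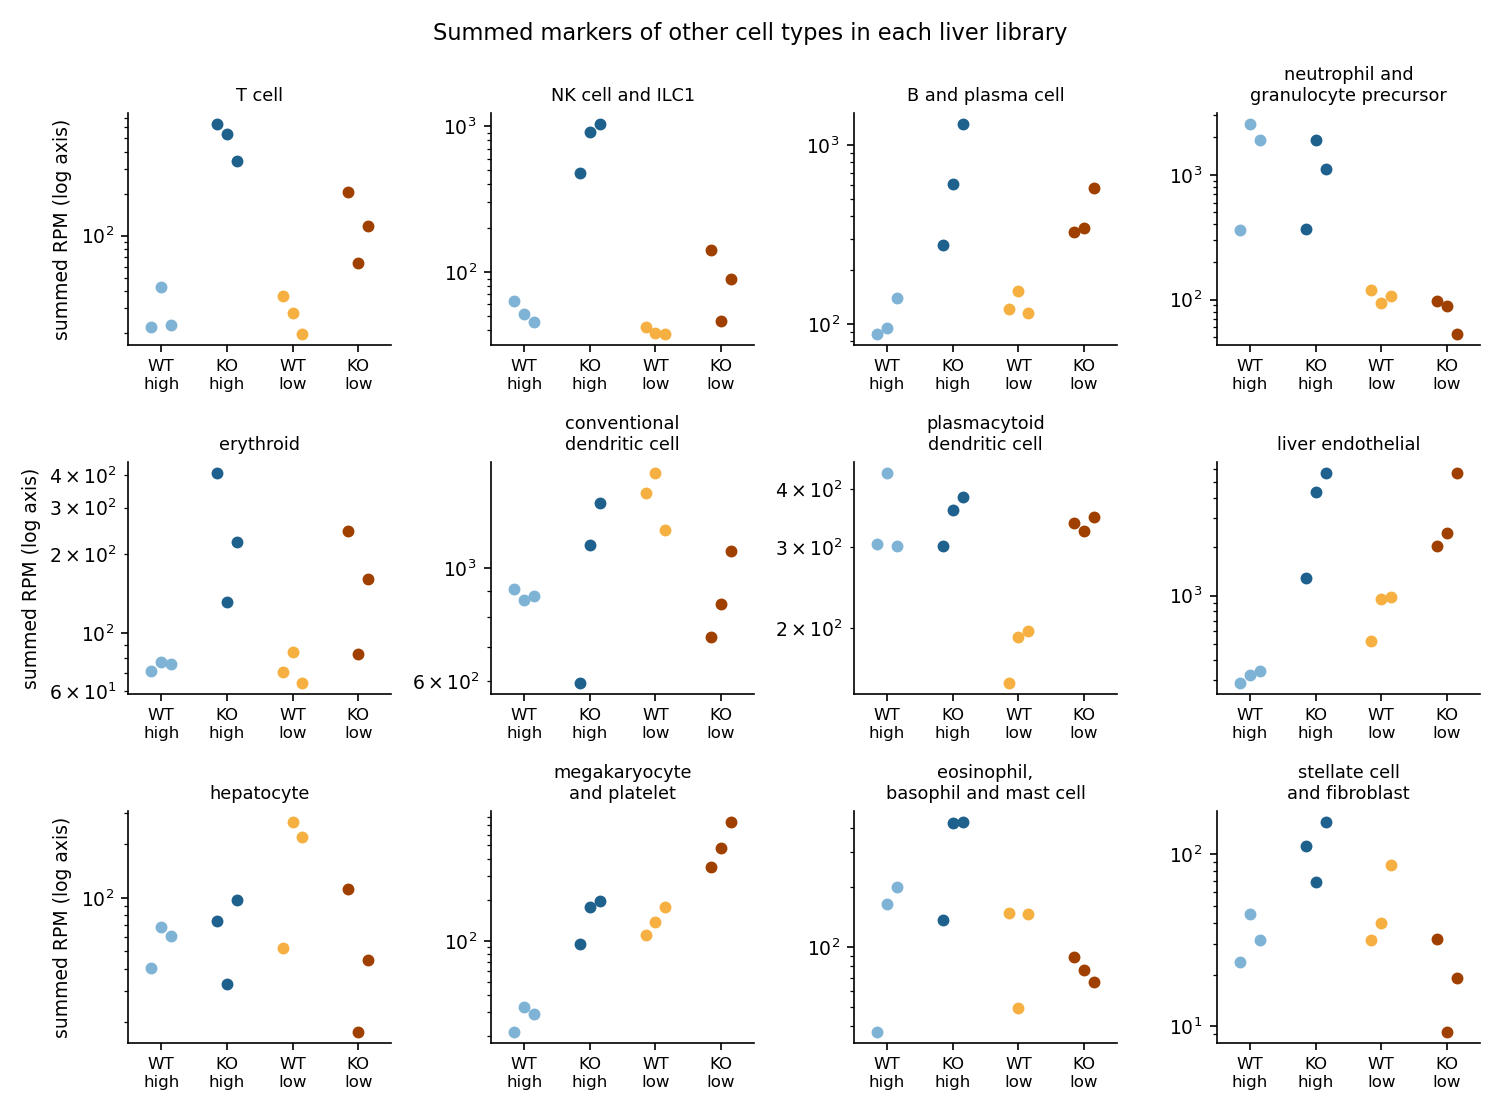
Summed RPM of the markers of 12 other cell types in each hepatic library, on log axes, grouped as wild-type (WT) and Rnaset2-/- (KO) Ly6C hi (high) and Ly6C low (low) macrophages. T cell markers reach 346 to 638 RPM and endothelial markers 1275 to 5745 RPM in KO Ly6C hi macrophages, and both sums lie above every WT library of that subset.

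The same interaction was computed in the spleen, from 13 libraries that the hepatic test did not use, to ask whether the pattern was shared between organs. There the interaction was positive for 877 (8.4%) and negative for 668 (6.4%) of 10439 genes (14.8% in all). The interaction was higher in liver than in spleen for 5.89% and lower for 7.19% of 12475 genes (13.1% in all). Of the 629 genes positive in liver, 607 were tested in spleen, where 120 were positive (19.8%) and 20 negative. Of the 639 negative in liver, 589 were tested in spleen, where 50 were negative (8.49%) and 88 positive (14.9%). Over all genes tested in both organs, 8.17% were positive and 6.49% negative in spleen. The shared positive genes made up 19.1% of those in liver and 13.7% of those in spleen.

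Tmc3, Lox, Raver2 and Wfdc17 were positive in both organs, with splenic interactions of 3.03, 3.87, 2.995 and 3.48, and their difference between organs did not pass. Nr1h3 and Rxra had splenic interactions of 0.60 and 0.69, and the hepatic interaction exceeded the splenic one by 2.93 ± 0.56 (SE, adjusted p = 0.00161) for Nr1h3 and 2.11 ± 0.41 (SE, adjusted p = 0.00173) for Rxra. Lpl, at 0.28 in spleen, differed between organs by 3.84 ± 0.87 (SE, adjusted p = 0.00631). Several of the largest negative interactions also differed between organs. Klri1 and Cacnb3 had splenic interactions of 0.14 and 0.50, and differed between organs by -6.77 ± 0.75 (SE, adjusted p = 1.41e-05) and -6.83 ± 0.90 (SE, adjusted p = 6.48e-05). H2-Ob and Jun passed in spleen in the opposite direction, at 1.78 and 1.22, and differed between organs by -6.02 ± 0.60 (SE, adjusted p = 9.26e-06) and -4.05 ± 0.45 (SE, adjusted p = 1.4e-05). Splenic and hepatic cells were prepared differently. The spleen was depleted of lymphocytes, neutrophils and erythroid cells with magnetic beads before sorting and the liver was dissociated by machine with heating, so organ and preparation cannot be told apart. The splenic Rnaset2-/- Ly6C hi libraries were also deeper, at 20404155 to 21167602 reads against 14059645 to 14572065 in the other splenic libraries. The effect of this depth on the splenic interaction was not tested.

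**Figure D5:**
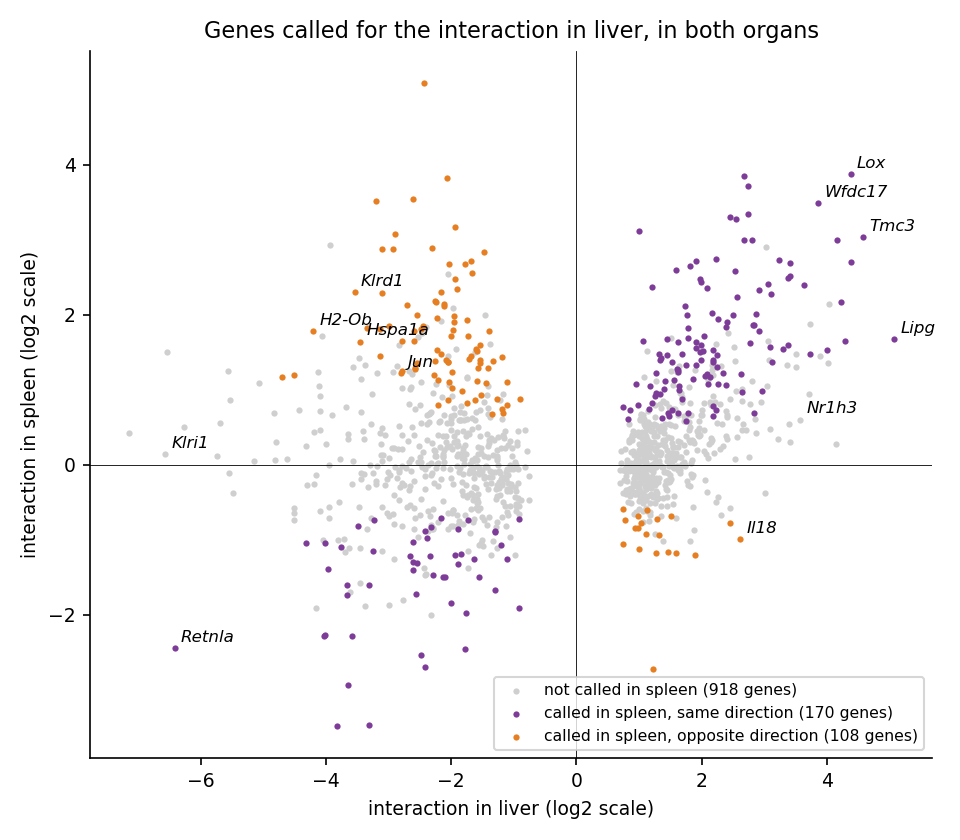
Interaction in liver (horizontal) and in spleen (vertical), on the log2(scaled RPM + 1) scale, for the genes called in liver and tested in both organs, coloured by their call in spleen. Of these genes, 170 were called in the same direction in spleen, most of them positive, and 108 in the opposite direction, most of them negative in liver.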

How the data were processed

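Mice, gates and libraries are as described above. The authors sequenced Ion AmpliSeq Transcriptome Mouse libraries from 1 ng of total RNA on an Ion Proton, mapped reads to mm10 amplicons with the AmpliSeqRNA plug-in and deposited RPM for 23930 genes. Amplicon counts do not depend on transcript length, but 1 amplicon cannot separate transcripts that share it. Values were scaled by relative log expression and tested on log2(value + 1) with limma 3.58.1 (trend), with 4 group means and 8 residual degrees of freedom, on autosomal genes at 1 RPM or more in at least 3 libraries. Benjamini-Hochberg adjustment covered all genes tested. A call needed an adjusted p below 0.05 and more than 1.5-fold. Whole reads were recovered from RPM steps (100% of values, tolerance 0.1 reads) and used for edgeR 4.0.16 (quasi-likelihood) and DESeq2 1.42.0 as alternatives, which assume that 1 step is 1 read. Added values, filters, scalings, libraries left out and replicate blocks were the other alternatives. Members and gene lists were chosen with earlier results of these data known. Named genes were the 8 largest called interactions in each direction with a mean of 10 RPM in 1 group, the 4 largest in each direction whose change reversed, the 3 called genes with the lowest adjusted p in each list and genes that the study speaks of in hepatic macrophages. Genes on X, Y and the mitochondrial genome (811) and genes without a single chromosome (1198) were left out. On simulated counts, limma recovered 88 of 100 genes with an interaction of 2 on the log2 scale and 23 of 100 with 1, and called 9 of the unchanged genes. The simulation used a single dispersion, equal means in the other groups and no library that stood apart, and changed only genes above a minimum mean. Its rates may therefore not hold for these libraries or for genes near the limit of detection. Some genes that these rules name are not reported here.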

Additional observations from a re-analysis of the deposited data

Results flagged for a closer look

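The difference between subsets that the report describes passed for 629 genes with a positive and 639 genes with a negative interaction, and the difference of this interaction between liver and spleen passed for 735 and 897 of 12475 genes. Of the 110 genes named by rule, 69 passed for the difference between organs, and values are given here for those among the 16 largest hepatic interactions and for those with a splenic interaction called in the opposite direction.

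Among the largest negative interactions, the hepatic value lay below the splenic one by a log2 difference of -7.64 for H2-M2, -6.77 for Klri1, -8.09 for Apol7c, -3.99 for Retnla, -6.83 for Cacnb3, -5.91 for Prg4, -6.28 for H2-Oa and -6.86 for Mreg. Among the largest positive ones, it lay above by 3.42 for Lipg, 2.68 for AI606473 and 3.84 for Lpl, and the other 5 did not pass. Retnla, Lipg and AI606473 were called in the same direction in both organs and differed in size.

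Genes called in opposite directions in the organs differed by -6.02 for H2-Ob, -4.05 for Jun and -5.12 for Hspa1a, all negative in liver and positive in spleen. Il18 was positive in liver and negative in spleen and differed by 3.57. The T and NK cell genes Cd247 (-4.27), Lck (-3.66), Cd6 (-4.23), Klrd1 (-5.89), Tbx21 (-5.22) and Eomes (-3.69) were negative in liver and positive in spleen.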

How the results depend on the processing

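The counts of 629 positive and 639 negative interactions moved most with the libraries. With 1 library left out there were 318 to 1084 positive interactions, 354 to 1259 negative interactions, 1366 to 1984 genes higher in Rnaset2-/- Ly6C hi, 1416 to 2547 genes lower in Rnaset2-/- Ly6C hi, 1841 to 2399 genes higher in Rnaset2-/- Ly6C low, 2080 to 3285 genes lower in Rnaset2-/- Ly6C low, 140 to 507 genes higher in wild-type Ly6C low than hi, 94 to 427 genes lower in wild-type Ly6C low than hi, 1055 to 1616 genes higher in Rnaset2-/- Ly6C low than hi and 1007 to 1929 genes lower in Rnaset2-/- Ly6C low than hi. Leaving out Rnaset2-/- Ly6C hi replicate 1 raised the positive count to 1084, and leaving out any of wild-type Ly6C hi replicates 1 and 3, Rnaset2-/- Ly6C hi replicates 2 and 3, the wild-type Ly6C low replicates or Rnaset2-/- Ly6C low replicate 2 lowered it by over 1.5 times, to between 318 and 405. Without wild-type replicate 1 in both subsets there were 234 positive interactions, 302 negative interactions, 99 genes higher in wild-type Ly6C low than hi and 59 genes lower in wild-type Ly6C low than hi. Without wild-type replicate 2 in both subsets there were 347 positive interactions, 319 negative interactions, 1965 genes lower in Rnaset2-/- Ly6C low and 120 genes lower in wild-type Ly6C low than hi. Without wild-type replicate 3 in both subsets there were 160 positive interactions, 186 negative interactions, 1144 genes higher in Rnaset2-/- Ly6C hi, 1199 genes lower in Rnaset2-/- Ly6C hi, 1941 genes lower in Rnaset2-/- Ly6C low, 58 genes higher in wild-type Ly6C low than hi and 30 genes lower in wild-type Ly6C low than hi. Without Rnaset2-/- replicate 1 in both subsets there were 1238 positive interactions, 1329 negative interactions, 654 genes higher in wild-type Ly6C low than hi and 638 genes lower in wild-type Ly6C low than hi. Without Rnaset2-/- replicate 2 in both subsets there were 206 positive interactions, 196 negative interactions, 1257 genes higher in Rnaset2-/- Ly6C hi, 1388 genes lower in Rnaset2-/- Ly6C hi, 1999 genes lower in Rnaset2-/- Ly6C low, 777 genes higher in Rnaset2-/- Ly6C low than hi and 738 genes lower in Rnaset2-/- Ly6C low than hi. Without Rnaset2-/- replicate 3 in both subsets there were 271 positive interactions, 341 negative interactions, 741 genes higher in Rnaset2-/- Ly6C low than hi and 827 genes lower in Rnaset2-/- Ly6C low than hi. Without wild-type replicates 2 and 3, which leaves 1 wild-type library in each subset that is assumed to vary like the others, 0 and 0 interactions passed in limma (1294 of 10725 genes at an unadjusted p under 0.05), with genotype effects of 360 higher and 373 lower in Ly6C hi and 653 and 776 in Ly6C low macrophages and subset differences of 2 and 0 in wild-type and 924 and 894 in Rnaset2-/- mice.

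RPM as deposited gave 331 positive interactions (845 negative), 3042 genes higher and 1454 lower in Rnaset2-/- Ly6C hi macrophages, 427 negative interactions in spleen and 243 positive differences between organs. The fit of all 29 libraries gave 1015 positive and 1247 negative interactions and wild-type subset differences of 506 higher and 456 lower, and DESeq2 gave 980 negative interactions (848 positive) and wild-type subset differences of 506 and 409. edgeR gave 475 and 584 interactions. An added value of 5 left 1924, and a filter at 5 RPM left 1946, genes lower in Rnaset2-/- Ly6C low macrophages. No filter gave 210 wild-type subset differences higher in Ly6C low. A 2-fold threshold gave 1464 genes lower in Ly6C hi, 1378 higher in Ly6C low and 808 higher subset differences in Rnaset2-/- mice. The causes of these moves were not tested. The spleen and organ scalings and the counts per list under other settings were added after seeing the data.

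The replicate numbers paired the samples only in part. Deviations of same-numbered wild-type libraries correlated at 0.556, -0.131 and -0.164 over genes and those of Rnaset2-/- libraries at 0.523, 0.231 and 0.446. Replicate 1 of each genotype and Rnaset2-/- replicate 3 correlated best with their own number. Wild-type Ly6C hi replicates 2 and 3 correlated best with Ly6C low replicates 3 (0.298) and 2 (0.681), and Rnaset2-/- Ly6C hi replicate 2 with Ly6C low replicate 3 (0.275). Whether equal numbers mark the same mouse was not given in the sources used here. With the number as a replicate block, 574 interactions were positive and 753 negative, and with a block within genotype 774 and 1099, with 410 wild-type subset differences lower in Ly6C low.

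Of 110 named genes tested, 97 were called, 75 of them in all 12 fits that left out 1 library, and none of the 97 changed sign under any alternative. The 12 that lost the call in more than 5 of these fits were Unc93b1, Prim1, Ndufv2, Sdhd, Lck, Cd6, Blk, Egfl7, Ramp2, Vwf, Mcpt8 and Ifih1. Depth limits levels under 0.23 to 0.268 RPM, and this covers counting error only.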

Other observations

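Transcripts of Y-linked genes summed to 150 to 291 RPM in the 6 Rnaset2-/- hepatic libraries of both subsets. In wild-type mice they were at 0 in replicate 1 of both subsets and at 28.95 to 52.7 RPM in replicates 2 and 3, which held Xist at 321 to 539 RPM beside them. The interaction was tested on autosomal genes, and its counts without wild-type replicates 2 and 3 are given with the other settings.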
